A study of Homo sapiens with 6 samples.

Results

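The genes of the human mitochondrial genome were followed in hESC-derived 3PPE, the endoderm that forms the third pharyngeal pouch, after treatment with siRNA against HOXA3 or a control siRNA. The members were all rows of the counts table that GENCODE release 29 places on the mitochondrial chromosome of GRCh38. They were 37 of 58735 genes: 13 protein genes, 2 rRNA genes and 22 tRNA genes, and all 37 carried a symbol that starts with MT-. Of them, 26 had enough reads to be tested, namely the 13 protein genes, the 2 rRNA genes and 11 of the 22 tRNA genes. None of the 26 passed the test for a difference between the groups. The RNA of the mitochondrial genome took between 4.51% and 5.57% of the reads of each library, and MT-CO1, a subunit of the enzyme that passes electrons to oxygen, was the gene with the most reads of all genes in the table.

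Mitochondrial DNA is a small circular genome that each cell holds in many copies. Both of its strands are transcribed into long RNAs that cover most of the circle, and tRNAs lie between the other genes and mark most of the places where these RNAs are cut. The mRNAs then receive short poly(A) tails. The proteins are subunits of the respiratory chain (complexes I, III and IV) and of ATP synthase (complex V), the rRNAs and tRNAs serve the ribosomes of the organelle, and every protein that copies, reads, cuts or degrades this RNA is made from nuclear genes.

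The 6 libraries came from H9, a line of human embryonic stem cells (hESCs), taken through endoderm (Activin A, WNT3A, a ROCK inhibitor and B27) and then through retinoic acid, SB431542, BMP4, IWP2 and B27 to 3PPE. Cells were transduced with negative control siRNA (NC, n = 3) or HOXA3 siRNA (Si-HOXA3, n = 3) with Lipofectamine at day 7 and harvested at day 9, and both groups were labelled as wild type. All libraries came from 1 cell line, which had been grown on mouse embryonic fibroblasts before differentiation, and reads from mouse cells were not tested for. The study describes its repeats as biological and independent, while the labels of the libraries do not say whether they were separate cultures. The p-values measure the spread between these libraries.

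The NC libraries held 14885355, 15171278 and 15191386 counts (replicates 1 to 3), and the Si-HOXA3 libraries 14652931, 15282307 and 14117150. At this depth a count of 0 allows up to 3 counts, or between 0.196 and 0.211 CPM (the count scaled to a common library size), which covers counting error only. A single library stood apart. The chi-square of the counts over genes per degree of freedom was between 27.9 and 33.9 for each pair with Si-HOXA3 replicate 2 and between 4.8 and 11.7 for all other pairs. Values without this library are given beside several genes whose log2 fold change moved when it was left out.

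HOXA3, the target of the siRNA, had 16.6, 15.8 and 15.4 CPM in NC against 10.9, 13.2 and 15.5 CPM in Si-HOXA3. The groups overlapped at Si-HOXA3 replicate 3. Its log2 fold change was -0.27 (SE 0.16, edgeR adjusted p = 0.828), and it was between -0.40 and -0.15 when each library was left out in turn. The level of the target RNA thus did not separate the groups in these libraries. The study itself reported HOXA3 lowered after the siRNA by qRT-PCR, Western blot and immunofluorescence. Directions below are those between the libraries labelled Si-HOXA3 and NC. Markers of the labelled cell type were checked as well. Of 9 genes on the list of pouch endoderm, 6 had a mean under 1 CPM, among them TBX1, PAX1, GCM2 and FOXN1. Above 1 CPM were EYA1 with a mean of 38.4 CPM, the epithelial gene EPCAM with a mean of 285 CPM, and HOXA3. The 9 genes listed for amnion and trophoblast all had a mean of more than 1 CPM, led by GABRP with a mean of 943 CPM, and their summed level was between 2959 and 3313 CPM in the 6 libraries. The 8 genes listed for mesenchyme summed to 3676, 3749 and 3508 CPM in the NC libraries and 3889, 3950 and 4232 CPM in the Si-HOXA3 libraries, without overlap. They were led by COL1A1 with a mean of 1429 CPM, and PRRX1 was under 1 CPM. Of this list, COL3A1 (log2 fold change -0.006, SE 0.13) and PDGFRA (-0.13, SE 0.17) were lower in Si-HOXA3. The other tested genes of the list were higher, with the largest value for VIM (0.50, SE 0.14). The 5 genes listed for pluripotency summed to 1136, 1158 and 1178 CPM in the NC libraries and 1281, 1323 and 1187 CPM in the Si-HOXA3 libraries, also without overlap. Most of this sum was LIN28A with a mean of 1097 CPM. The means of DPPA4, POU5F1 and SOX2 were 104, 6.24 and 3.88 CPM, and NANOG was under 1 CPM. The sums of the other lists overlapped between the groups. Among single genes, the groups did not overlap for 13.3% of all genes tested. No marker on any of these lists passed the test, and the part of these cell types in the mitochondrial values was not tested. The lists of definitive endoderm, liver and neural cells each had 4 of 5 genes with a mean under 1 CPM, and no library had a sum above 5.80 CPM for any of them. The 5 markers of cardiomyocytes, cells known for many mitochondria, summed to between 14.0 and 17.7 CPM, with MYH6, MYH7 and NKX2-5 under 1 CPM. In bulk RNA, fewer cells of a type, fewer copies of the genome per cell and less RNA per copy cannot be told apart.

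The layout of the genome is shown first, because it bears on how reads can be counted. The last 24 bases of each protein gene are printed 5′ to 3′ on the strand of the gene, from the GENCODE transcripts, with the bases of the last codon in capitals, the frame being counted from the first base of the transcript. They are shown because 6 of the 13 genes end inside a codon, where the poly(A) tail completes the stop codon of the mRNA.
MT-ND1 (chrM:4239-4262, plus strand): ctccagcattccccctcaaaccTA
MT-ND2 (chrM:5488-5511, plus strand): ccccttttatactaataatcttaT
MT-CO1 (chrM:7422-7445, plus strand): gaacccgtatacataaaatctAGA
MT-CO2 (chrM:8246-8269, plus strand): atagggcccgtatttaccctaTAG
MT-ATP8 (chrM:8549-8572, plus strand): cattcattgcccccacaatccTAG
MT-ATP6 (chrM:9184-9207, plus strand): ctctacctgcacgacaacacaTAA
MT-CO3 (chrM:9967-9990, plus strand): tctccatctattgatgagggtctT
MT-ND3 (chrM:10381-10404, plus strand): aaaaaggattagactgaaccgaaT
MT-ND4L (chrM:10743-10766, plus strand): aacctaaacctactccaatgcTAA
MT-ND4 (chrM:12114-12137, plus strand): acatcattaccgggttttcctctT
MT-ND5 (chrM:14125-14148, plus strand): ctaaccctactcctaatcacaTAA
MT-ND6 (chrM:14149-14172, minus strand): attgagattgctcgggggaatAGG
MT-CYB (chrM:15864-15887, plus strand): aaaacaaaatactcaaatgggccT

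MT-ND2, MT-CO3, MT-ND3, MT-ND4 and MT-CYB ended after 1 base of the codon (T) and MT-ND1 after 2 bases (TA). MT-CO1 and MT-ND6 ended in AGA and AGG, codons that stand for no amino acid in human mitochondria. Of the 15 rRNA and protein genes, 9 had a tRNA gene within 3 bases below their lower coordinate and 10 within 3 bases above their higher coordinate, and 5 had one on both sides.

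Neighbouring protein genes overlapped by more than 1 base in 2 places, and the shared bases are shown in capitals, with 15 bases on either side. In each pair the capitals begin with the ATG of the second gene and end with the stop codon of the first.
MT-ATP8 with MT-ATP6 (chrM:8512-8587, plus strand): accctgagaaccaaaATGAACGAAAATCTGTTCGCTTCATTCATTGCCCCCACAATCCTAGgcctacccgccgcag
MT-ND4L with MT-ND4 (chrM:10745-10781, plus strand): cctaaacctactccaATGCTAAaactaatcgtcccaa

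The shared bases were chrM:8527-8572 in the first pair, 46 bases or 22.2% of MT-ATP8 and 6.75% of MT-ATP6. In the second pair they were chrM:10760-10766, 7 bases or 2.36% of MT-ND4L and 0.508% of MT-ND4. How the authors treated reads that fall on more than 1 gene is not given in the sources used here.

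**Figure D1:**
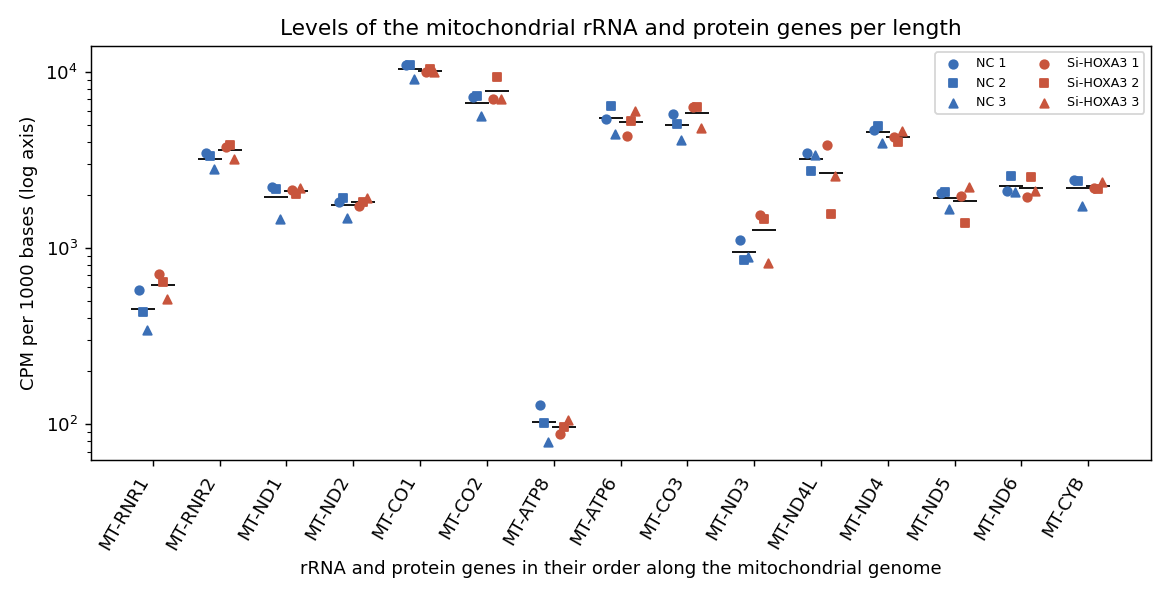
Level of each rRNA and protein gene in CPM per 1000 bases on a log axis, with genes in their order along the genome, 1 point per library (n = 3 NC in blue, n = 3 Si-HOXA3 in red) and a black line at the mean of each group. MT-CO1 was highest and MT-ATP8 lowest in every library, and the points of the groups overlapped for every gene.

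The level per length differed widely between the rRNA and protein genes, all of which but MT-ND6 lie on the plus strand. In NC, the level per length was highest for MT-CO1, the catalytic subunit of complex IV, at 10306 ± 1036 CPM per 1000 bases (SD, n = 3). It was followed by MT-CO2 at 6662 ± 925, MT-ATP6 at 5427 ± 984, MT-CO3 at 4955 ± 825 and MT-ND4 at 4522 ± 512 CPM per 1000 bases. MT-CO1 was above MT-CO2 in 6 of 6 libraries with no overlap of their NC ranges, while MT-ATP6 and MT-CO3 changed places and were higher in 3 libraries each. A middle group held MT-RNR2 (3196 ± 353 CPM per 1000 bases), MT-ND4L (3195 ± 406), MT-ND6 (2246 ± 265), MT-CYB (2181 ± 387), MT-ND1 (1945 ± 420), MT-ND5 (1933 ± 234) and MT-ND2 (1743 ± 228). Within it, the NC ranges of MT-RNR2 and MT-ND4L overlapped, and so did those of each pair of neighbours from MT-ND6 to MT-ND2. MT-ND3 (947 ± 139 CPM per 1000 bases), MT-RNR1 (450.4 ± 118) and MT-ATP8 (103 ± 24.7) were each lower than the gene that preceded them in this order in 6 of 6 libraries, with no overlap in NC.

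The genes of the overlapping pairs stood in different relation to each other. MT-ATP8 and MT-ATP6, both subunits of ATP synthase, are read from a common mRNA, and so are MT-ND4L and MT-ND4 of complex I. Per length, MT-ATP6 was 41.9, 63.4 and 55.8 times MT-ATP8 in NC and 48.7, 54.3 and 56.6 times MT-ATP8 in Si-HOXA3. MT-ND4 was 1.34, 1.81 and 1.17 times MT-ND4L in NC and 1.11, 2.54 and 1.81 times MT-ND4L in Si-HOXA3. The ratio of the first pair was thus at least 41.9 in each of the 6 libraries and that of the second at most 2.54. MT-ATP8 is 207 and MT-ND4L 297 bases long, and the part of the shared bases and of gene length in these ratios was not tested. The rRNAs of the small and the large ribosomal subunit (MT-RNR1 and MT-RNR2), which lie next to each other, also differed, with MT-RNR2 at 6.001, 7.72 and 8.14 times MT-RNR1 per length in NC and 5.25, 6.04 and 6.20 times in Si-HOXA3. MT-ND6, the only protein gene on the minus strand, was close to MT-ND5, its neighbour on the plus strand. The ratio of MT-ND5 to MT-ND6 per length was 0.972, 0.815 and 0.803 in NC and 1.00, 0.545 and 1.05 in Si-HOXA3. Whether reads were counted by strand is not given in the sources used here, so that for MT-ND6 and other genes of the minus strand reads from the opposite strand cannot be told apart.

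The mitochondrial RNA took 5.56%, 5.57% and 4.51% of all counts in NC and 5.28%, 5.35% and 5.33% in Si-HOXA3. The exact 95% binomial intervals, which cover counting error only and were far narrower than the spread between the NC libraries, ran from 4.49% to 4.52% in NC replicate 3 and from 5.55% to 5.57% in NC replicate 1. NC replicate 3 was lowest and the other NC libraries were highest, so that the Si-HOXA3 libraries all lay between them. The means were 5.21% ± 0.612 in NC and 5.32% ± 0.0348 in Si-HOXA3 (SD, n = 3), a difference of 0.107 percentage points that was less than the spread of NC. It turned to -0.246 percentage points without NC replicate 3, so that the direction rests on this library.

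**Figure D2:**
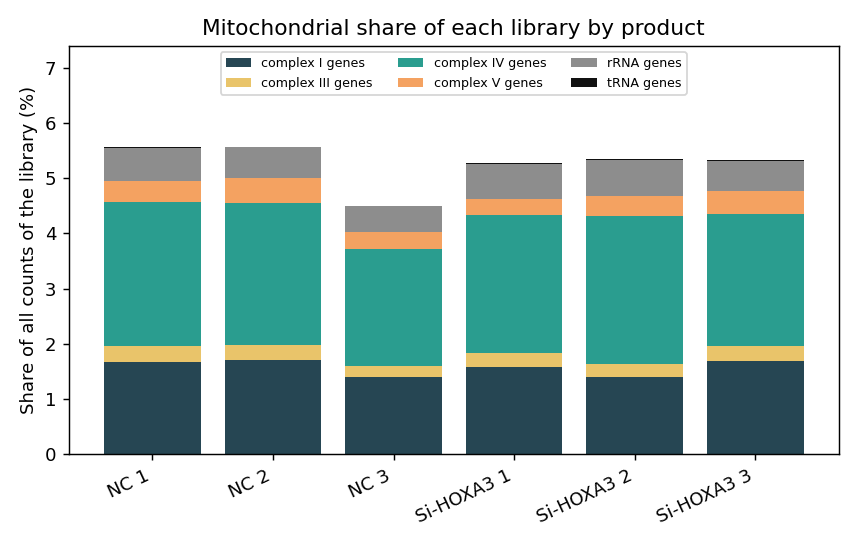
Share of all counts of each library (in %) taken by the mitochondrial genes, stacked by product, 1 bar per library. Complex IV genes formed the largest part in each library, tRNA genes a line too thin to see, and NC replicate 3 had the lowest total at 4.51%.

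By product, the 3 genes of complex IV formed the largest class of the mitochondrial reads. They made up 47.2%, 46.3% and 47.1% of the mitochondrial counts in NC and 47.2%, 50.3% and 45.1% in Si-HOXA3. The 7 genes of complex I made up 30.1%, 30.7% and 30.9% in NC and 29.996%, 26.0% and 31.5% in Si-HOXA3. Both values of Si-HOXA3 replicate 2 stood outside the range of the other 5 libraries. The 2 rRNA genes held 10.7%, 10.1% and 10.5% of the mitochondrial counts in NC and 12.2%, 12.2% and 10.3% in Si-HOXA3, with the groups overlapping at Si-HOXA3 replicate 3. The 22 tRNA genes together held between 0.228% and 0.327%. No class of product separated the groups, either as a share of the library or as a share of the mitochondrial counts. The labels name an mRNA kit and the LM-Seq protocol, and the step that captured the RNA is not given in the sources used here.

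The spread between replicates was much larger than counting error. Over the 15 rRNA and protein genes, the coefficient of variation of the CPM in NC had a median of 13.9% and ranged from 10.1% to 26.2%, while the median expected from counting alone was 0.516%. For comparison, 878 nuclear genes of at least 200 CPM in NC had a median of 4.90% in the NC libraries against 11.8% in the Si-HOXA3 libraries, and the 15 genes had a median of 13.6% in Si-HOXA3. NC replicate 3 had the lowest CPM of the 3 NC libraries for 13 of the 15 genes and the lowest of all 6 libraries for 10. These genes moved together, with a median deviation of -0.23 on the log2 scale from the NC mean over the 13 protein genes in NC replicate 3, against 0.10 and 0.12 in NC replicates 1 and 2. In Si-HOXA3 the same median was 0.01, 0.00 and 0.03.

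**Figure D3:**
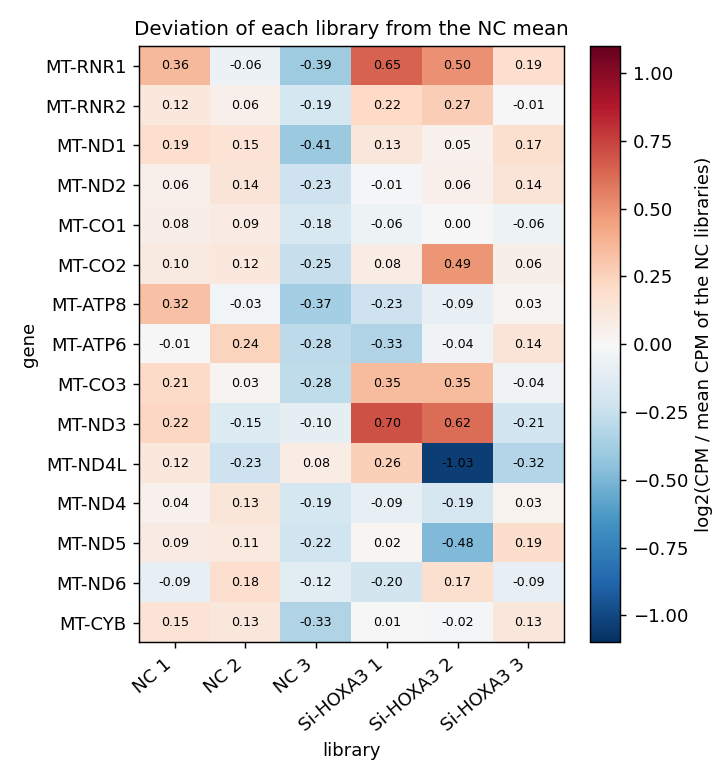
Deviation of the CPM of each rRNA and protein gene from its NC mean (log2, printed in each cell), with genes in rows and the 6 libraries in columns, blue for lower and red for higher. NC replicate 3 was below the NC mean for all genes but MT-ND4L, and Si-HOXA3 replicate 2 had the most negative value, -1.03 for MT-ND4L.

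The comparison of HOXA3 siRNA with control siRNA was made by edgeR's quasi-likelihood test with Benjamini-Hochberg adjustment over all 16561 genes tested. Among the 26 mitochondrial genes tested, 0 had an adjusted p under 0.05, where 0.00604% of all genes did. That share was 1 gene, BOLA2B, named here after its values were seen, which has a near-identical copy in the genome. DESeq2 and limma-voom also gave 0 of the 26. Without adjustment, 2 of the 26 had a p under 0.05 (MT-RNR1 and MT-TE), beside 6.36% of all genes tested. The groups did not overlap for 1 of the 26 (MT-TE), beside 13.3% of all genes tested. Neither count stood above the share over all genes tested by more than 1 gene. In the fit, 14 of the 26 were higher and 12 lower in Si-HOXA3, with a median log2 fold change of 0.05, where all genes tested had a median of 0.00. This median turned to -0.06 without NC replicate 3. For a single value, the smallest p of an exact permutation test in this design is 0.1.

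**Figure D4:**
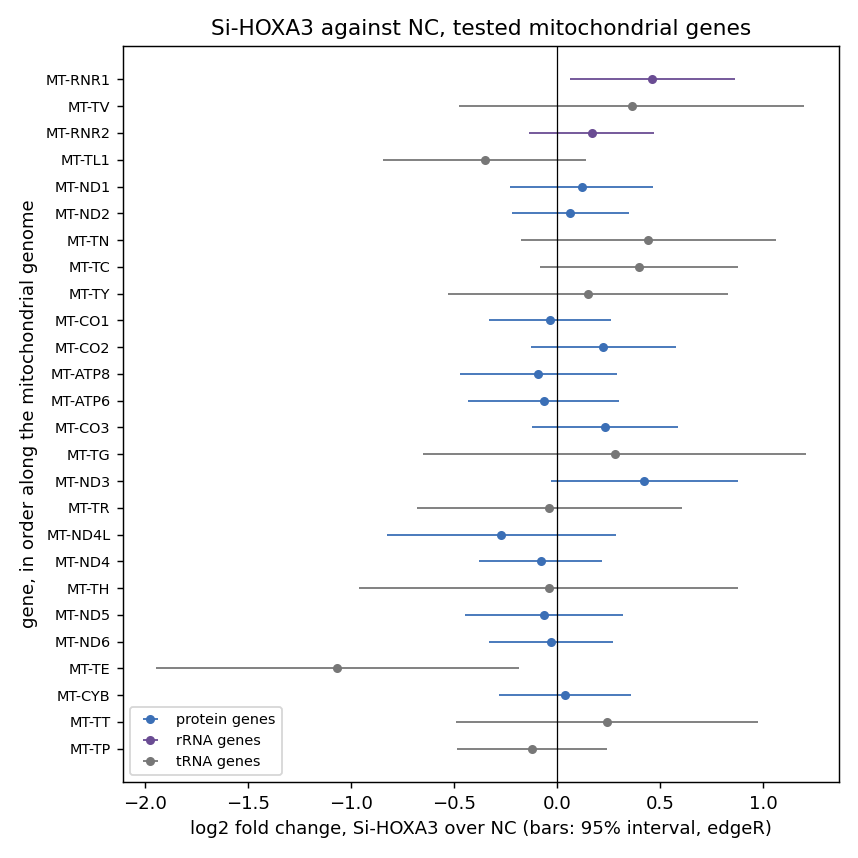
Log2 fold change of Si-HOXA3 over NC for the 26 tested mitochondrial genes in genome order, with 95% intervals of the edgeR fit as bars (n = 3 per group). Only the intervals of MT-RNR1 and MT-TE leave out 0, before any adjustment for the number of genes.

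Of the rRNA genes, MT-RNR1 (ENSG00000211459, chrM:648-1601, plus strand), the rRNA of the small ribosomal subunit, had 550.4, 411 and 328 CPM in the NC libraries and 676, 609 and 489.6 CPM in the Si-HOXA3 libraries. The groups overlapped, since Si-HOXA3 replicate 3 lay under NC replicate 1. In the edgeR fit it had a log2 fold change of 0.46 (SE 0.18, edgeR adjusted p = 0.731), the largest among the tested rRNA and protein genes. It was between 0.30 and 0.68 when each library was left out in turn, with an adjusted p of 0.463 or more. With no filter on low counts it had an adjusted p of 0.0442, which is under the threshold. MT-RNR2 (ENSG00000210082, chrM:1671-3229, plus strand), the rRNA of the large subunit, had 5397, 5192 and 4357 CPM in NC against 5798, 6012 and 4963 CPM in Si-HOXA3. It had a log2 fold change of 0.17 (SE 0.14, adjusted p = 0.859), with a 95% interval from -0.14 to 0.47, and the fold change was 0.0788 on the log2 scale when NC replicate 3 was left out.

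Complex I takes electrons from NADH and holds the 7 ND subunits. None of its genes passed the test. MT-ND3 (ENSG00000198840) had 383, 295 and 306 CPM in the NC libraries and 532, 503 and 283 CPM in the Si-HOXA3 libraries, with the last library under all others. Its log2 fold change of 0.42 (SE 0.21, adjusted p = 0.788) was 0.66 without that library, where the adjusted p was 0.243, and 0.26 with Si-HOXA3 replicate 1 left out. MT-ND4L (ENSG00000212907) had 1031, 811 and 1005 CPM in NC against 1137, 464 and 759.5 CPM in Si-HOXA3. These values included both the highest and the lowest library in Si-HOXA3. The log2 fold change was -0.27 (SE 0.25, adjusted p = 0.876), and it was -0.004 without Si-HOXA3 replicate 2 and -0.63 without Si-HOXA3 replicate 1.

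MT-ND5 (ENSG00000198786) had 3726, 3767 and 3014 CPM in the NC libraries and 3555, 2503 and 3999 CPM in the Si-HOXA3 libraries. Si-HOXA3 replicate 2 was again the lowest, and the log2 fold change of -0.06 (SE 0.17, adjusted p = 0.953) turned to 0.11 without it. The other genes of the complex had log2 fold changes between -0.08 and 0.12. MT-ND1 (ENSG00000198888) had 2117, 2064 and 1398 CPM in NC against 2030, 1927 and 2099 CPM in Si-HOXA3 (log2 fold change 0.12, SE 0.16). MT-ND2 (ENSG00000198763) had 1891, 2007 and 1550.3 CPM in the NC libraries and 1799, 1889.7 and 2005 CPM in the Si-HOXA3 libraries (log2 fold change 0.06, SE 0.13). In both genes NC replicate 3 was the lowest of the 6 libraries. MT-ND4 (ENSG00000198886), with 6429, 6817 and 5449 CPM in NC against 5839, 5468 and 6382 CPM in Si-HOXA3, had a log2 fold change of -0.08 (SE 0.14), which lay between -0.17 (NC replicate 3 left out) and -0.0101 (NC replicate 2 left out). MT-ND6 (ENSG00000198695) had 1110.4, 1340 and 1088 CPM in the NC libraries and 1025, 1329 and 1107 CPM in the Si-HOXA3 libraries, a log2 fold change of -0.03 (SE 0.14). Adjusted p-values of these 4 genes were 0.912 or more.

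MT-CYB (ENSG00000198727), the only subunit of complex III that the organelle encodes, had 2766, 2720.4 and 1979 CPM in NC against 2498, 2456 and 2718 CPM in Si-HOXA3. The NC libraries held both the highest and the lowest value. The log2 fold change was 0.04 (SE 0.15, adjusted p = 0.965).

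Complex IV reduces oxygen with the subunits CO1, CO2 and CO3 at its core. MT-CO1 (ENSG00000198804, chrM:5904-7445, plus strand) had 16760, 16868 and 14048 CPM in the NC libraries and 15283, 15944 and 15278 CPM in the Si-HOXA3 libraries, which lay inside the range of NC. The difference was small, with a log2 fold change of -0.04 (SE 0.13, adjusted p = 0.966) and a 95% interval from a 0.795-fold to a 1.20-fold level. MT-CO2 (ENSG00000198712) had 4892, 4951 and 3827 CPM in NC against 4813, 6387 and 4760.3 CPM in Si-HOXA3. The log2 fold change of 0.22 (SE 0.16, adjusted p = 0.843) was 0.07 without Si-HOXA3 replicate 2, the highest library. MT-CO3 (ENSG00000198938) had 4492, 3957 and 3205 CPM in the NC libraries and 4957, 4955 and 3774 CPM in the Si-HOXA3 libraries (log2 fold change 0.23, SE 0.16, adjusted p = 0.843). Without NC replicate 3 the log2 fold change was 0.11 for both MT-CO2 and MT-CO3. Si-HOXA3 replicate 3 was lower than 2 of the 3 NC libraries for this gene. Thus the ratio of MT-CO1 to MT-CO2 per length was 1.52, 1.51 and 1.63 in NC and 1.41, 1.11 and 1.42 in Si-HOXA3, without overlap of the groups. It was 1 of 8 ratios between members that were computed, and the only one of them without overlap.

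Complex V, ATP synthase, uses the proton gradient through MT-ATP6. This gene (ENSG00000198899) had 3679.6, 4373 and 3034 CPM in NC against 2932, 3592 and 4071 CPM in Si-HOXA3 (log2 fold change -0.07, SE 0.17, adjusted p = 0.950). MT-ATP8 (ENSG00000228253) had only 399, 318 and 253 reads in NC and 267, 303 and 311 reads in Si-HOXA3. The log2 fold change was -0.09 (SE 0.17, adjusted p = 0.935). For both genes the Si-HOXA3 libraries overlapped with those of NC.

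The tRNA genes gave few reads. Together they held 2373, 1955 and 1799 reads in NC and 2527, 2412 and 1717 reads in Si-HOXA3. Per length, their median level over the 6 libraries was 12.8 CPM per 1000 bases, where the 13 protein genes had a median of 2222. The tRNA genes are 59 to 75 bases long and the protein genes 207 to 1812 bases. The part of gene length and of the capture of RNA in this difference was not tested. The tRNA gene with the most reads, MT-TN, held 40.3% of all tRNA reads and, with 3 others (MT-TP, MT-TC and MT-TR), 80.8%. The 8 tRNA genes on the minus strand held 78.6% of the tRNA reads, and the 14 on the plus strand the rest. The sequences of 3 of these tRNA genes are shown on the strand of the gene, with the anticodon in capitals: the 2 with the most reads (MT-TN for asparagine and MT-TP for proline) and the only one whose groups did not overlap (MT-TE for glutamate). All of them lie on the minus strand.
MT-TN (chrM:5657-5729, minus strand): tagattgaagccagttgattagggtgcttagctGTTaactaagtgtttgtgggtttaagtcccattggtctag
MT-TP (chrM:15956-16023, minus strand): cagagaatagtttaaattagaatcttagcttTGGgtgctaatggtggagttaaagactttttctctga
MT-TE (chrM:14674-14742, minus strand): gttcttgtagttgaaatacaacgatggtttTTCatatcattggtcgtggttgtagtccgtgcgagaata

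MT-TN (ENSG00000210135) had 934, 583 and 707 reads in NC and 1442, 946 and 545 reads in Si-HOXA3, so that Si-HOXA3 held both the highest and the lowest library. Per length it was above MT-ATP8 in every library, by 4.97 to 15.31 times. The log2 fold change of 0.44 (SE 0.28, adjusted p = 0.830) was 0.04 without Si-HOXA3 replicate 1 and 0.72 without Si-HOXA3 replicate 3 (adjusted p = 0.450). MT-TP (ENSG00000210196) had 540, 627 and 412 reads in NC and 394, 521 and 489 reads in Si-HOXA3 (log2 fold change -0.12, SE 0.16, adjusted p = 0.914). MT-TE (ENSG00000210194), which lies between MT-ND6 and MT-CYB, had 24, 40 and 45 reads in NC and 9, 19 and 22 reads in Si-HOXA3. The highest Si-HOXA3 library was 2 reads under the lowest NC library. On the scale of CPM the levels were 1.61, 2.64 and 2.94 in NC and 0.617, 1.26 and 1.55 in Si-HOXA3. The log2 fold change was -1.07 (SE 0.40, edgeR adjusted p = 0.725), and it was between -1.34 and -0.77 when each library was left out in turn, with an adjusted p of 0.371 or more.

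MT-TC (cysteine) had 265, 162 and 181 reads in NC and 288, 301 and 188 reads in Si-HOXA3, with a log2 fold change of 0.40 (SE 0.22) that was between 0.26 (NC replicate 2 left out) and 0.65 (NC replicate 1 left out). MT-TL1, the first of the leucine tRNAs, had 169, 135 and 116 reads in NC and 135, 87 and 96 reads in Si-HOXA3 (log2 fold change -0.35, SE 0.22), with values between -0.18 (NC replicate 1 left out) and -0.57 (Si-HOXA3 replicate 1 left out). MT-TR (arginine) had 144, 126 and 146 reads in NC and 74, 207 and 113 reads in Si-HOXA3, with a log2 fold change of -0.04 (SE 0.29) that was -0.50 without Si-HOXA3 replicate 2, its highest library (adjusted p = 0.418). The groups of these 3 genes overlapped. The other tested tRNA genes were MT-TY (33 to 67 reads), MT-TG (31 to 116), MT-TT (30 to 77), MT-TH (15 to 47) and MT-TV (11 to 24), and their log2 fold changes were between -0.04 and 0.36 with groups that overlapped. Without Si-HOXA3 replicate 2, MT-TG turned from 0.28 to -0.12 and MT-TT from 0.24 to -0.14 on the log2 scale. Without NC replicate 3, the value of MT-TV went from 0.36 to 0.14. Of all 11 tested tRNA genes, 6 were higher and 5 lower in Si-HOXA3. The other 11 tRNA genes (MT-TF, MT-TI, MT-TQ, MT-TM, MT-TW, MT-TA, MT-TS1, MT-TD, MT-TK, MT-TS2 and MT-TL2) had at most 19 reads in any library and were not tested, and 6 of the 22 had 0 reads in at least 1 library.

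**Figure D5:**
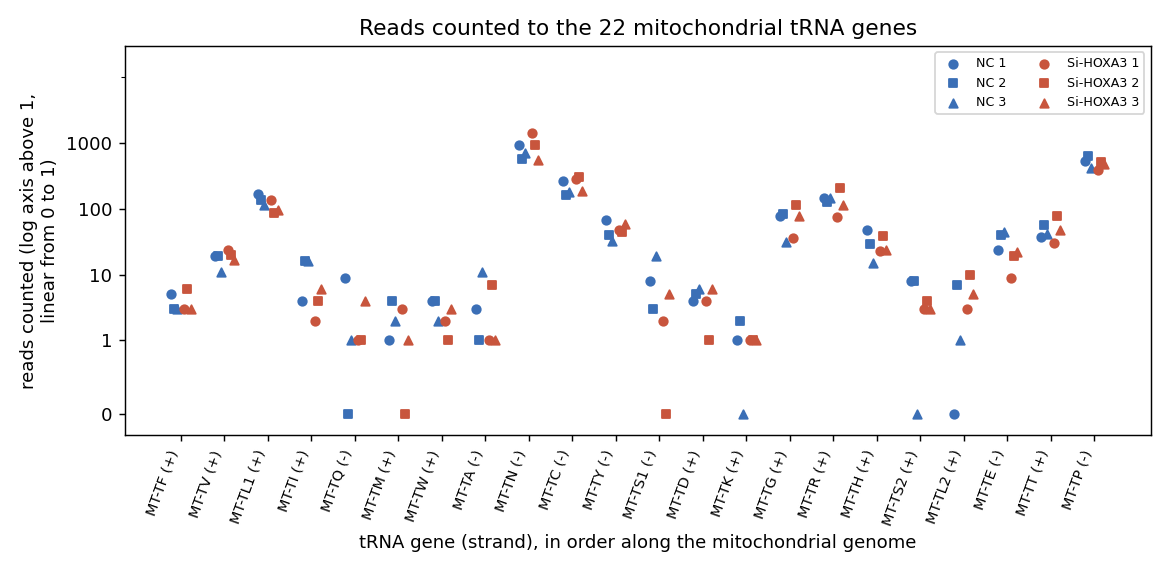
Reads counted to each of the 22 tRNA genes on an axis that is linear from 0 to 1 and logarithmic above, in genome order with the strand of each gene, 1 point per library (NC in blue, Si-HOXA3 in red). MT-TN reached 1442 reads, and the 11 genes that were not tested stayed at 19 reads or fewer.

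Nuclear copies of mitochondrial DNA can take reads from these genes. GENCODE lists 407 such copies by symbol, of which 109 had a read. Their summed counts were 6780, 6069 and 6331 in NC and 7910, 5916 and 5266 in Si-HOXA3, which equals between 0.7003% and 1.02% of the mitochondrial counts. A set of 3 neighbouring copies on chromosome 1 held between 96.3% and 97.1% of these reads. MTATP6P1 (chr1:633696-634376) differed from MT-ATP6 at 10 of 681 aligned bases, and MTND2P28 (chr1:629640-630683) differed from MT-ND2 at 17 of 1042. MTCO1P12 (chr1:631074-632616) differed from MT-CO1 at 20 of 1542.

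Of the 3 copies, MTCO1P12 had far fewer reads relative to its mitochondrial gene than the other copies. The reads of MTATP6P1 equalled 5.92%, 4.56% and 7.19% of those of MT-ATP6 in NC and 11.2%, 6.21% and 4.24% in Si-HOXA3. The reads of MTND2P28 equalled between 7.20% and 10.6% of those of MT-ND2. For MTCO1P12 and MT-CO1, in contrast, the share was between 0.120% and 0.195%, although their identity of 98.7% was as high as for the other copies (98.5% and 98.4%). None of the 3 passed the test, with log2 fold changes of 0.19 (SE 0.19) for MTATP6P1, -0.17 (SE 0.12) for MTND2P28 and 0.07 (SE 0.18) for MTCO1P12. When each library was left out in turn, the value of MTND2P28 was between -0.23 and -0.0739. MTND4P12 on chromosome 5 (47 to 93 reads, log2 fold change 0.11, SE 0.27) and MTCYBP21 on chromosome 21 (3 to 22 reads, log2 fold change -0.14, SE 0.60, and 0.31 without Si-HOXA3 replicate 2) followed. Of all 50-base stretches of each member, the share found without mismatch in another annotated transcript was 49.5% for MT-CO1, 46.7% for MT-ATP6 and 43.6% for MT-ND2. It was 0% for MT-RNR1, MT-ND3, MT-ND4L and all 22 tRNA genes. Counts of genes with such stretches are uncertain, since a read within one fits more than 1 gene.

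The nuclear genes that maintain, read and process the mitochondrial genome were described from lists of 81 genes, all of which had enough reads to be tested. None of the 81 had an adjusted p under 0.05. Of them, 37 were higher and 44 lower in Si-HOXA3, with a median log2 fold change of -0.02. An unadjusted p under 0.05 was found for 2 of the 81, and the groups did not overlap for 8, where the shares over all genes tested were 6.36% and 13.3%. These counts are in the range of the background.

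Among the 9 genes of transcription, 6 were higher and 3 lower. POLRMT, the mitochondrial RNA polymerase, had 77.4, 75.2 and 74.8 CPM in the NC libraries and 66.5, 83.1 and 79.9 CPM in the Si-HOXA3 libraries (log2 fold change 0.01, SE 0.11). TFAM, which packs the DNA and starts transcription, had 110.1, 123 and 117 CPM in NC against 102, 121 and 100.0 CPM in Si-HOXA3 (log2 fold change -0.12, SE 0.11). TFB2M, which opens the promoter with the polymerase, had 16.6, 17.6 and 20.3 CPM in the NC libraries and 13.7, 21.0 and 14.0 CPM in the Si-HOXA3 libraries (log2 fold change -0.16, SE 0.18). The groups overlapped for all 3. Without Si-HOXA3 replicate 2, the log2 fold change of TFAM was -0.22 (adjusted p = 0.326) and that of TFB2M -0.39 (adjusted p = 0.346). Over all libraries left out in turn, the values nearest to 0 were -0.0666 for TFAM and -0.0504 for TFB2M. TEFM, the elongation factor, had a mean of 9.88 ± 1.39 CPM in NC against 10.5 ± 2.89 CPM in Si-HOXA3 (SD, n = 3), with a log2 fold change of 0.09 (SE 0.21) that turned to -0.15 without the same library. MRPL12, a protein of the ribosome that also binds the polymerase, had 1.74, 1.58 and 1.18 CPM in the NC libraries and 2.47, 3.45 and 3.02 CPM in the Si-HOXA3 libraries, without overlap. This gave a log2 fold change of 0.99 (SE 0.30, edgeR adjusted p = 0.613), at a level close to the filter, and it was between 0.84 and 1.11 when each library was left out in turn. MRPL12 overlaps another annotated gene on the same strand, as do HSD17B10, SLIRP, MTPAP and NRF1 below. The counts of these genes are uncertain, since the treatment of reads that fall on more than 1 gene is not given in the sources used here.

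Of the 13 genes of RNA processing, 7 were higher and 6 lower. The groups did not overlap for 3 of them (1 higher and 2 lower), beside 13.3% of all genes tested. TRMT10C, HSD17B10 and ELAC2 take part in freeing the tRNAs, TRMT10C and HSD17B10 at the 5′ end and ELAC2 at the 3′ end. TRMT10C had 23.1, 24.99 and 25.5 CPM in NC against 26.7, 35.4 and 27.3 CPM in Si-HOXA3 (log2 fold change 0.28, SE 0.14, adjusted p = 0.788, and 0.14 without Si-HOXA3 replicate 2). ELAC2 had 105, 101 and 110.0 CPM in the NC libraries and 90.5, 94.5 and 93.4 CPM in the Si-HOXA3 libraries (log2 fold change -0.18, SE 0.09, adjusted p = 0.791). These groups did not overlap, in opposite directions, and neither passed the test. HSD17B10 had 27.8, 24.7 and 29.2 CPM in NC against 27.1, 41.3 and 24.3 CPM in Si-HOXA3, where its log2 fold change of 0.18 (SE 0.18) turned to -0.09 without Si-HOXA3 replicate 2. GRSF1, which binds the RNA in granules where it is processed, had a mean of 133 ± 5.37 CPM in the NC libraries and 139.9 ± 24.5 CPM in the Si-HOXA3 libraries (SD, n = 3). The log2 fold change of GRSF1 was 0.07 (SE 0.13).

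The 7 genes of polyadenylation, stability and decay had log2 fold changes between -0.11 and 0.20. LRPPRC, which protects the mRNAs together with SLIRP, had 290.0, 305 and 313 CPM in NC against 252, 316 and 275 CPM in Si-HOXA3 (log2 fold change -0.11, SE 0.11, and between -0.20 and -0.0333 when each library was left out in turn). SLIRP had 11.7, 11.7 and 20.5 CPM in the NC libraries and 19.5, 19.0 and 11.9 CPM in the Si-HOXA3 libraries, with 1 library high in NC and 1 low in Si-HOXA3. For SLIRP the log2 fold change of 0.20 (SE 0.25) became 0.06 when NC replicate 1 was left out and 0.52 when NC replicate 3 was (adjusted p = 0.997). The poly(A) polymerase MTPAP had a mean of 34.3 ± 2.60 CPM in NC against 34.8 ± 1.33 CPM in Si-HOXA3 (SD, n = 3). PNPT1 and SUPV3L1, the nuclease and the helicase that degrade the RNA, had log2 fold changes of -0.02 (SE 0.11) and 0.01 (SE 0.12). No member of this list had groups without overlap.

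The lists of maintenance (18 genes, 5 higher and 13 lower), of rRNA and tRNA modification (23 genes, 12 higher and 11 lower) and of regulators of biogenesis (11 genes, 4 higher and 7 lower) also held no gene that passed the test. Only ATAD3A, a membrane protein associated with the DNA, had an unadjusted p under 0.05 among them. It had 40.2, 34.5 and 37.7 CPM in the NC libraries and 41.1, 51.6 and 45.9 CPM in the Si-HOXA3 libraries (log2 fold change 0.30, SE 0.12, edgeR adjusted p = 0.733). The near copies of this gene in the genome make its counts uncertain. Of the regulators, PPARGC1A had 4.49, 3.69 and 3.72 CPM in NC against 3.50, 2.19 and 4.57 CPM in Si-HOXA3 (log2 fold change -0.22, SE 0.28, and 0.02 without Si-HOXA3 replicate 2). NRF1 had a log2 fold change of 0.04 (SE 0.11) and ESRRA of -0.16 (SE 0.13), and the groups overlapped for both. With each library left out in turn, the former was between 0.00828 and 0.0798 and the latter between -0.23 and -0.0774.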

How the data were processed

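The authors deposited whole-number counts of reads per gene for 6 libraries, without normalization, from which CPM and log2 fold changes were computed here. The aligner, the counting program and the strand setting are not given in the sources used here. The submitters' processing notes name mouse builds, while all 58735 identifiers were human ones found in GENCODE release 29 on GRCh38, which gave symbols, positions, exon lengths and transcript sequences. Analyses were run in R 4.3.3 with edgeR 4.0.16 (filterByExpr, TMM normalization, two-sided quasi-likelihood test, Benjamini-Hochberg adjustment over 16561 genes). Samples were grouped by their labels, and no 2 libraries differed by as little as sampling noise. CPM per 1000 bases was used between genes. Alternatives were DESeq2 1.42.0, limma-voom (limma 3.58.1), other normalizations and filters, a replicate block and each library left out in turn. The fits were tested on simulated data. All rRNA and protein genes, the tRNA genes that passed the filter, 16 core nuclear genes, list genes with an unadjusted p under 0.05, the 5 nuclear copies with the highest mean count and HOXA3 were named. The members and lists were chosen with earlier results of these data known. Some markers of the pouch are not reported here by value.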

Additional observations from a re-analysis of the deposited data

How the results depend on the processing

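None of the 26 tested mitochondrial genes passed the threshold under 8 of the 9 alternatives that keep all libraries or when any library was left out, and with no filter 1 did (MT-RNR1, log2 fold change 0.47, edgeR adjusted p = 0.0442). The number of genes called over all genes tested was 1, and it was 38 with DESeq2, 47 with limma-voom and quality weights, 19 with the mitochondrial total as library size, 100 with no filter (34513 genes tested) and between 1 and 24 when each library was left out, 24 being the value without Si-HOXA3 replicate 2. With the replicate number as a block it was 4. Libraries with the same number were correlated by 0.142, 0.104 and -0.059 in their deviations from the group means. Those with different numbers were correlated by between -0.173 and 0.0889, and these values do not settle whether the numbers pair the libraries. The block called no mitochondrial gene. With it, the edgeR test gave MT-RNR1 an unadjusted p of 0.00176 (log2 fold change 0.48, adjusted p = 0.345). For MT-TE the unadjusted p was 0.00961 (log2 fold change -1.09, adjusted p = 0.563). The median log2 fold change of the 26 genes was between 0.02 and 0.07 under the other alternatives and between -0.06 and 0.13 when each library was left out. That of the nuclear lists was -0.02, -0.0785 with the mitochondrial total as library size and between -0.07 and 0.01 when each library was left out. The difference in the mitochondrial share was between -0.246 and 0.287 percentage points when each library was left out, 0.0377 without the rRNA genes and 0.108 with the nuclear copies added.

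Of the 26 genes, 11 kept their sign in all 15 alternatives, and the rest turned at least once without passing the threshold; the cause was not tested. With limma-voom the sign turned for MT-TG (-0.29), MT-ND4L (0.0305), MT-ND5 (0.0230), MT-TT (-0.25), POLRMT (-0.0668), TEFM (-0.15), GRSF1 (-0.0545) and MTCYBP21 (0.24), and with the replicate block for MT-TH (0.0313). With the mitochondrial total as library size it turned for NRF1 (-0.0130), POLRMT (-0.0388), MTPAP (-0.0379) and SUPV3L1 (-0.0586), with library size only for SUPV3L1 (-0.00402) and with upper-quartile normalization for PNPT1 (0.00152). When each library was left out, the log2 fold changes of genes that turned ranged from -0.0507 to 0.22 for MT-ND1, -0.0383 to 0.14 for MT-ND2, -0.0552 to 0.51 for MT-TY, -0.12 to 0.00947 for MT-CO1, -0.25 to 0.099 for MT-ATP8, -0.19 to 0.0737 for MT-ATP6, -0.12 to 0.62 for MT-TG, -0.50 to 0.24 for MT-TR, -0.37 to 0.43 for MT-TH, -0.21 to 0.11 for MT-ND5, -0.15 to 0.0704 for MT-ND6, -0.10 to 0.12 for MT-CYB, -0.14 to 0.51 for MT-TT, -0.28 to 0.0205 for MT-TP, -0.48 to 0.0197 for PPARGC1A, -0.0535 to 0.11 for POLRMT, -0.15 to 0.26 for TEFM, -0.0125 to 0.0883 for MTPAP, -0.0898 to 0.0355 for PNPT1, -0.051 to 0.0986 for SUPV3L1, -0.0800 to 0.17 for GRSF1, -0.0871 to 0.33 for HSD17B10, -0.0981 to 0.38 for MTATP6P1, -0.16 to 0.21 for MTCO1P12, -0.20 to 0.30 for MTND4P12 and -1.04 to 0.31 for MTCYBP21.

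Of the tRNA genes, 11 had too few reads for a test. The spread between the NC libraries was above counting error for the rRNA and protein genes and also for MT-TN (a coefficient of variation of 25.1% against 3.67%) and MT-TP (21.0% against 4.36%). With 3 libraries per group, the 95% interval of MT-CO1, before any adjustment, ran from 0.795-fold to 1.20-fold, and values further from 1 also missed the threshold, among them MT-RNR1 at 1.38-fold and MT-TE at 0.478-fold. How reads that fit more than 1 gene were counted and whether strand was used are not given in the sources used here, and reads from mouse cells were not tested for.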
